A study of Mus musculus with 6 samples.

Results

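The claudins examined here are 9 genes of the colonic epithelium, Cldn1, Cldn2, Cldn3, Cldn4, Cldn7, Cldn8, Cldn12, Cldn15 and Cldn23. They were represented by every probe set that the platform annotation assigns to 1 of these symbols, 17 of the 45101 probe sets on the array. Gene expression in colonic mucosa was measured on Affymetrix 3' expression arrays in C57BL/6 mice that received no treatment. The labels give 3 arrays as p38a-knockout and 3 as wildtype, lettered A, B and C in each group, and describe the cells as intestinal epithelial cells. Mapk14 encodes p38a, a kinase that responds to stress. The labels name neither the way nor the cell type of the deletion, nor the age of the mice. They also do not say whether each array was a separate animal, so the p-values reflect the spread of these arrays, some of which may be technical.

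Claudins are tetraspan membrane proteins whose extracellular loops meet between neighbouring cells and form the strands of the tight junction. Some seal the paracellular path and others form pores for small ions and water, so that the mixture sets how leaky an epithelium is. In the colon claudin-2 is mainly a protein of the crypt, whereas claudin-4, claudin-7 and claudin-23 are prominent in cells near the lumen, and claudin-8 is a sealing claudin of the distal colon.

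No claudin passed the test between the arrays labelled knockout and wild type. Of the 17 probe sets 13, from 8 genes, were bright enough to be tested, and 4 were not, all of Cldn1. Values are log2(signal + 16) after quantile normalization of the deposited MAS5 signals unless stated, and differences are the arrays labelled knockout minus wild type, so that differences of dim genes are understated. limma called 0 of 13 claudin probe sets at an adjusted p of 0.05, adjusted over all 27002 probe sets tested, of which 0% were called. An unadjusted p under 0.05 was given to 0 of the 13, and to 952 of all tested probe sets, 3.53%. The groups overlapped on all 13, while 8.74% of all tested probe sets had no overlap, 4.75% higher and 4% lower on the arrays labelled knockout. Of the 13 probe sets 4 were higher and 9 were lower, and 46.4% of all tested probe sets were lower. By the brightest probe set of each gene 6 claudins were lower and 2 higher, with a median difference of -0.06, where the median of all tested probe sets was 0.02. Adjusted p-values of the 13 in limma were 0.915 to 0.979. In exact two-sided permutation tests p ranged from 0.2 to 1, and 0.1 is the smallest that 3 arrays against 3 allow.

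**Figure D1:**
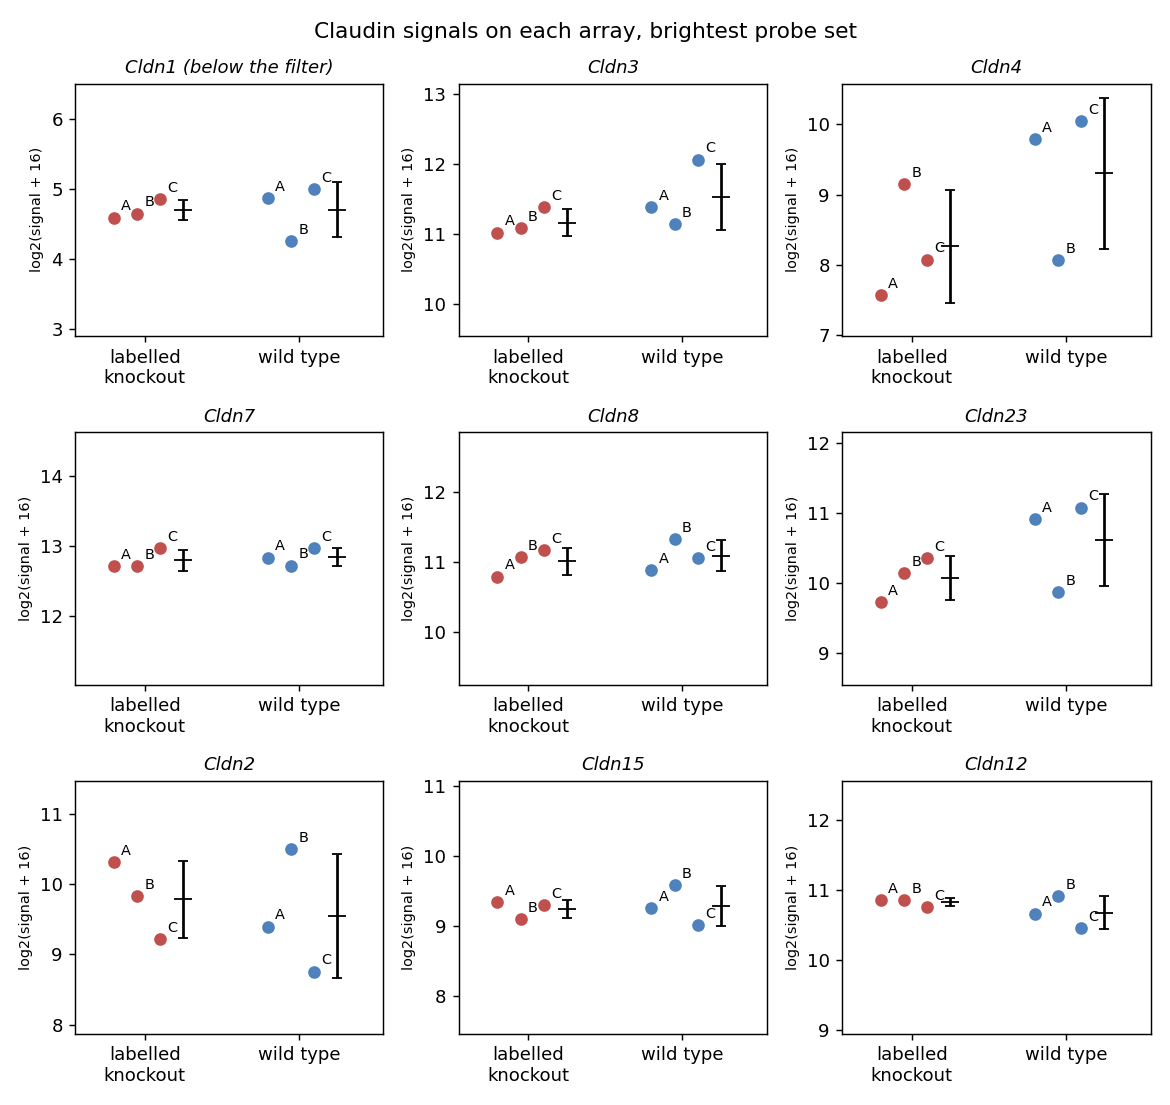
Signal of each of the 9 claudins on each array, as log2(signal + 16) after quantile normalization, for the brightest probe set. Points are single arrays with their letters, and the bar beside them is the mean with the SD of 3 arrays. Each panel spans the same height on the log2 scale, and the arrays labelled knockout overlap with wild type in every panel.

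Some properties of the arrays bear on all of these values. The deposited signals had a 2% trimmed mean of 192 to 222 on the arrays labelled knockout, against 188 on wild type B and 117 to 141 on wild type A and C. Gapdh control probes near the 3' end, divided by those near the 5' end, give a ratio that is larger where RNA is more degraded. It was 0.859 to 0.954 on the arrays labelled knockout, against 0.989 on wild type B and 1.10 to 1.45 on wild type A and C. For Actb control probes the same ratio overlapped between the groups. It was 2.05, 2.27 and 1.82 on knockout-labelled arrays A, B and C, and 2.40, 2.24 and 3.25 on wild type A, B and C. Mapk14 went against the label. Its brightest probe set read 9.72, 9.91 and 9.73 on the arrays labelled knockout, above the 9.31, 9.44 and 9.37 of wild type (difference 0.41, SE 0.15, limma adjusted p = 0.915). The groups overlapped on its other 4 tested probe sets. The position of this probe set relative to the deletion was not examined. For that reason the arrays are called "labelled knockout" throughout. All 10 of 10 epithelial markers were above the signal filter, as were 8 of 9 T cell and leukocyte markers with a probe set here. The filter kept 27002 of the 45101 probe sets, and also 4 of 9 squamous and 3 of 8 pancreatic acinar markers. Passing it is therefore weak evidence of a cell type. The leukocyte marker Ptprc had deposited signals of 475 to 958, so the tissue held other cells besides epithelium. In bulk tissue, fewer cells of a type and less RNA per cell cannot be told apart.

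Among the sealing claudins, Cldn4 ranged most between arrays. Claudin-4 restricts the passage of sodium in many epithelia and sits in the more differentiated cells of the colon. Its only probe set, 1418283_at, read 7.57, 9.15 and 8.07 on knockout-labelled arrays A, B and C, against 9.80, 8.07 and 10.05 on wild type A, B and C. Knockout A was the lowest array, wild type A and C were the highest, and wild type B lay within the range of the arrays labelled knockout. The deposited signals behind these values were 221, 615 and 297 on the arrays labelled knockout and 700, 271 and 670 in wild type. The group means were 8.26 ± 0.81 and 9.30 ± 1.08 (SD, n = 3 each) for the arrays labelled knockout and wild type, a difference of -1.04 (SE 0.55, 95% interval -2.31 to 0.22, limma adjusted p = 0.915, unadjusted 0.0939). This is 2.06-fold in size, and 0.478% of all tested probe sets were at least 2-fold apart. The distance between the highest and the lowest array, 2.49, was exceeded by 0.774% of all tested probe sets.

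The promoter windows of Cldn4 and Cldn2 are shown because these were the claudins whose signals differed most from array to array, in opposite directions. Each runs from 250 bases before to 50 bases after the transcription start in the RefSeq promoter table, build GRCm38.p6. The Cldn4 window is chr5:134946885-134947184 on the minus strand, with a GC content of 61.0%, and the Cldn2 window is chrX:139800558-139800857 on the plus strand, with a GC content of 51.3%. Capitals mark matches, on either strand, to the AP-1 site TGANTCA, the GC box GGGCGG, the TATA box TATAAA, the CDX-type site TTTATG and the GATA site AGATAA.
Cldn4: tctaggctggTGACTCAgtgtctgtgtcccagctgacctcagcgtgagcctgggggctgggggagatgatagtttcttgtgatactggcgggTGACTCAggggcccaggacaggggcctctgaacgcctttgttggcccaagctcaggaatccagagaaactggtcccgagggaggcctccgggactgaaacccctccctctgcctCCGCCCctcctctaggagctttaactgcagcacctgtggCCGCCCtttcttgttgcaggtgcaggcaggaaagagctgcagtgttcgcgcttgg
Cldn2: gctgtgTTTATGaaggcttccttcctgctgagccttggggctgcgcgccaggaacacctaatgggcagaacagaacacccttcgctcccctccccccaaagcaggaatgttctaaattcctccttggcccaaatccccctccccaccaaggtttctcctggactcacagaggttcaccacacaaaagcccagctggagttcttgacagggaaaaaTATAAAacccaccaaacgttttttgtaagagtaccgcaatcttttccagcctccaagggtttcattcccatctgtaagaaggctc
The Cldn4 window held 2 AP-1 matches, at -240 and -158 from the start site, and 2 GC boxes. The Cldn2 window held a TATA box at -35 and a CDX-type match at -244, and none of the other motifs. Of 32851 promoter windows in the table, several of which can belong to 1 gene and overlap, 7.81% held the AP-1 letters, 35.7% the GC box, 13.6% the TATA box, 11.9% the CDX-type letters and 11.2% the GATA letters. Of the 9 claudins 7 were in the table, with 10 windows. AP-1 letters were found in 2 of the 10 and GC boxes in 7, and the other AP-1 match was in the window of Cldn15. A match of letters is not a bound site, and no binding was measured here.

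Cldn23, which encodes a claudin of differentiated surface cells, followed the same arrays as Cldn4. Its probe set read 9.74, 10.15 and 10.35 on knockout-labelled arrays A, B and C, and 10.92, 9.87 and 11.08 on wild type A, B and C. Wild type A and C again stood above the other arrays, and wild type B lay between knockout A and knockout B. The means were 10.08 ± 0.31 on the arrays labelled knockout and 10.62 ± 0.66 in wild type (SD, n = 3 each), a difference of -0.54 (SE 0.32, 95% interval -1.26 to 0.18, limma adjusted p = 0.915). The deposited signals were 1107, 1248 and 1520 on the arrays labelled knockout and 1596, 1021 and 1441 in wild type. The size of the difference depended on the scaling, at -0.05 on the signals as deposited and -0.29 centred on array medians.

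Cldn3, a broadly expressed sealing claudin, had 4 probe sets. The brightest, 1434651_a_at, read 11.03, 11.09 and 11.39 on knockout-labelled arrays A, B and C, and 11.39, 11.15 and 12.07 on wild type A, B and C. Wild type C was the highest, wild type A was level with knockout C to 2 decimals, and wild type B lay within the range of the arrays labelled knockout. The difference was -0.37 (SE 0.23, 95% interval -0.90 to 0.16, limma adjusted p = 0.915). The other 3 probe sets gave differences of -0.38, -0.23 and -0.07, all with overlapping groups. Of the 4 sets, 1460569_x_at and 1451701_x_at carry a suffix that marks probes shared with other transcripts. In the gene order of GRCm38.p6 Cldn3 and Cldn4 are neighbours on chromosome 5, with no other protein-coding gene between them.

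Cldn7 and Cldn8 varied far less. Claudin-7 lies at the junction and along the side of colonic epithelial cells, and mice without it develop intestinal inflammation. Its probe set read 12.70, 12.71 and 12.97 on knockout-labelled arrays A, B and C, and 12.83, 12.72 and 12.97 on wild type A, B and C. All 6 arrays lay within 0.26, a range exceeded by 96.6% of all tested probe sets. The difference was -0.05 (SE 0.12), with a 95% interval from -0.32 to 0.23 (limma adjusted p = 0.956). For Cldn8 the values were 10.79, 11.07 and 11.17 on knockout-labelled arrays A, B and C, and 10.89, 11.32 and 11.06 on wild type A, B and C. Wild type B was the highest and knockout A the lowest. The difference was -0.08 (SE 0.17, 95% interval -0.46 to 0.30, limma adjusted p = 0.939). For neither gene does the result show that the groups were alike, and the intervals give the differences that these arrays cannot exclude.

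Cldn1, whose product is a sealing claudin needed for the skin barrier, was not measured above the signal filter. Its brightest probe set had deposited signals of 8.43, 10.2 and 14.8 on the arrays labelled knockout and 11.7, 2.77 and 14.7 in wild type. The filter stood at a signal of about 18.4. Signals of its other 3 probe sets were 12.5 or less on every array, and no test was made for any of them.

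On every tested probe set of Cldn2, Cldn15 and Cldn12 wild type B was the highest array and wild type C the lowest. Their differences between the groups did not share a direction. Claudin-2 forms a pore for sodium and water and is confined mostly to crypts in the healthy colon. The brighter of its probe sets, 1417231_at, read 10.31, 9.83 and 9.22 on knockout-labelled arrays A, B and C, and 9.40, 10.50 and 8.76 on wild type A, B and C. Wild type B was the highest of all arrays and wild type C the lowest, so the wild-type arrays spanned the whole range of the arrays labelled knockout. The means were 9.79 ± 0.55 on the arrays labelled knockout and 9.55 ± 0.88 in wild type (SD, n = 3 each), a difference of 0.24 (SE 0.43, 95% interval -0.75 to 1.23, limma adjusted p = 0.933). The dimmer probe set, 1417232_at, gave 0.45 (SE 0.43) with the same highest and lowest array. The range of Cldn2 over 6 arrays was 1.74, exceeded by 4.57% of all tested probe sets.

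Cldn15 encodes the cation pore that supplies luminal sodium in the mouse intestine. It read 9.34, 9.09 and 9.30 on knockout-labelled arrays A, B and C, against 9.26, 9.58 and 9.02 on wild type A, B and C. Wild type B was the highest and wild type C the lowest, as for Cldn2. The difference was -0.04 (SE 0.19, 95% interval -0.48 to 0.40, limma adjusted p = 0.979). Cldn12, whose product has been linked to calcium permeability and lacks the PDZ-binding tail of most claudins, read 10.86, 10.86 and 10.76 on the arrays labelled knockout and 10.67, 10.92 and 10.46 in wild type on 1433781_a_at. The arrays labelled knockout were close together, between wild type B above and wild type A and C below. The difference was 0.15 (SE 0.15, 95% interval -0.21 to 0.50, limma adjusted p = 0.915), and 0.34 (SE 0.26) on its other probe set.

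**Figure D2:**
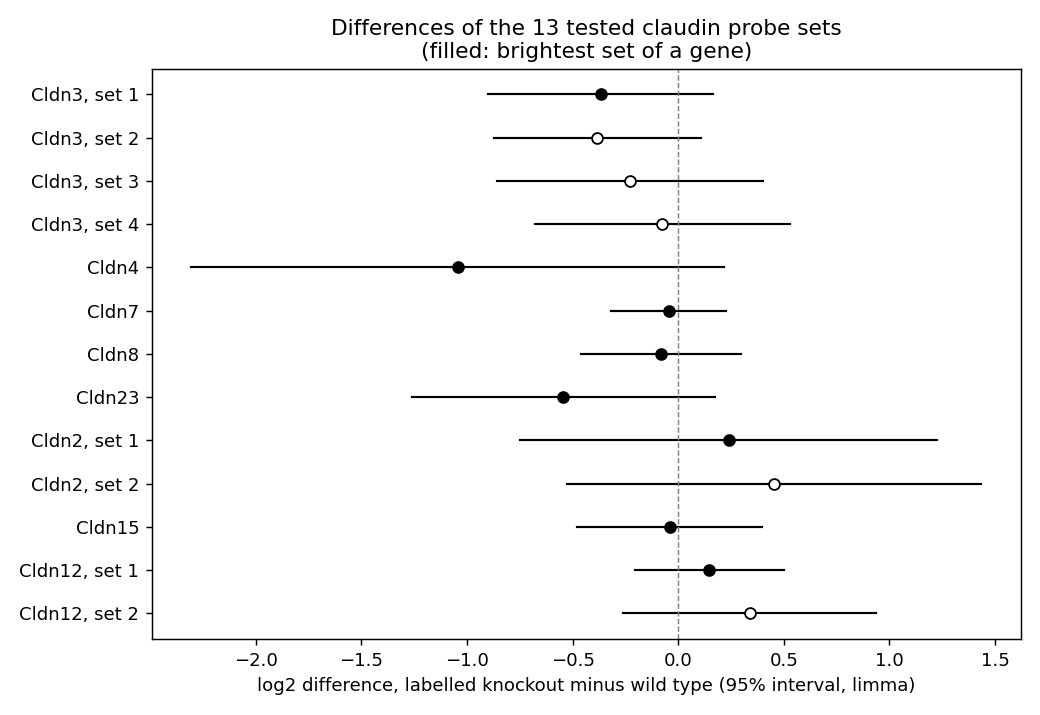
Log2 difference of each of the 13 tested claudin probe sets, the arrays labelled knockout minus wild type, with the 95% interval from limma as a line. Filled points are the brightest probe set of a gene, and all 13 intervals include 0, the widest being that of Cldn4 from -2.31 to 0.22.

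The direction of these differences depended on which wild-type arrays were used. Wild type A and C averaged 9.92 for Cldn4 and wild type B read 8.07, so the wild-type arrays differed among themselves by 1.86, more than the difference of -1.04 between the groups. Set against wild type A and C, the mean of the arrays labelled knockout differed by -1.66 for Cldn4, -0.92 for Cldn23 and -0.56 for Cldn3. Against wild type B alone it differed by 0.20 for Cldn4, 0.21 for Cldn23 and 0.02 for Cldn3. For Cldn2 the corresponding differences were 0.71 against wild type A and C and -0.71 against wild type B. Without wild type B, 6 of 13 claudin probe sets (46.2%) had an unadjusted p under 0.05, beside 16.2% of all tested probe sets in that fit, and none passed after adjustment. When the only control was wild type B, 0 of 13 had such a p, where all tested probe sets had 2.78%. Such a p was also given to 3 of 13 (23.1%) with array weights, beside 21.3% of all, and to 2 of 13 (15.4%) with the replicate letter as a block, beside 4.73% of all. Without knockout B it was given to 1 of 13 (7.69%), beside 2.71% of all.

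With the Gapdh ratio as a covariate the differences were 0.13 for Cldn4, 0.04 for Cldn23, 0.14 for Cldn3, 0.06 for Cldn7, -0.62 for Cldn2 and -0.10 for Cldn12, of opposite sign to the fit without it. Cldn15 and Cldn8 kept their sign and were further from 0, at -0.39 for Cldn15 (unadjusted p = 0.104 in limma) and -0.20 for Cldn8. None of these passed the test. The ratio was lower on every array labelled knockout (0.859 to 0.954) than on every wild-type array (0.989 to 1.45). This fit therefore cannot tell the ratio and the label apart. The part of RNA quality in the claudin differences was not tested.

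**Figure D3:**
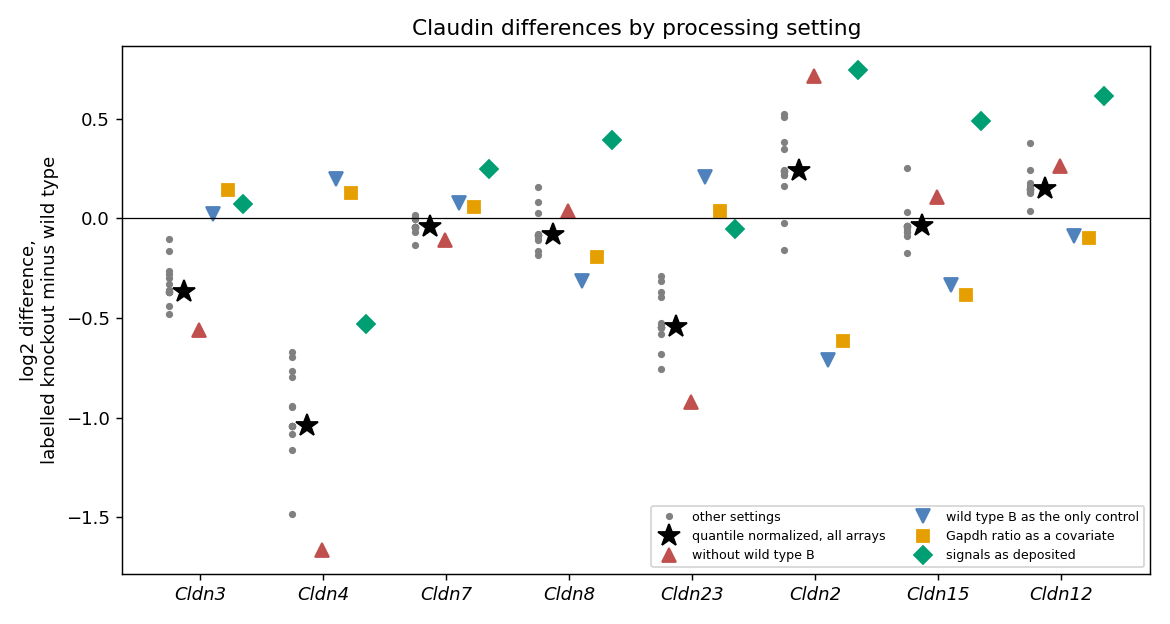
Log2 difference of the brightest probe set of each tested claudin, the arrays labelled knockout minus wild type, under the main setting (star) and 20 others. Cldn4 lies between -1.66 without wild type B and 0.20 when the only control was wild type B, whereas Cldn7 stays between -0.13 and 0.25.

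Markers of the crypt and of the surface were set beside the claudins, since the claudins differ in where along the crypt they are made. Of 18 tested genes of surface colonocytes 3 were higher and 15 lower, none past the test in limma (0% of all tested probe sets were called), with a median difference of -0.11. The mean of the list was 11.82, 11.99 and 12.22 on knockout-labelled arrays A, B and C, and 12.36, 11.86 and 12.59 on wild type A, B and C. As for Cldn4 and Cldn23, wild type A and C were the highest and knockout A the lowest. Among the arrays labelled knockout, the list and Cldn23 were highest on C. Cldn4 was instead highest on B, at 9.15 against 8.07 on C. In 11 of the 18 genes (61.1%) wild type A and C both lay above all other arrays, beside 14.7% of all tested probe sets. This was not particular to the surface list. It also held for 5 of 8 T cell and leukocyte genes (62.5%) and 5 of 10 epithelial markers (50%). It held for 7 of 18 regulators of claudin transcription (38.9%) and 2 of 17 crypt base and cycling genes (11.8%). Among the claudins it held for 3 of 8, Cldn3, Cldn4 and Cldn23, though in Cldn3 wild type A read 11.3907 and knockout C 11.3891. Genes of the surface list with the smallest p were the chloride channel accessory gene Clca4a at -1.06 (SE 0.29), the guanylin gene Guca2a at -0.35 (SE 0.11), Mxd1, which encodes a partner of Max that opposes Myc, at -0.64 (SE 0.25), and the membrane protein gene Emp1 at -0.40 (SE 0.18), each with a limma adjusted p of 0.915.

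Of 17 tested crypt base and cycling genes 13 were higher and 4 lower, again none past the test, with a median of 0.24. The list mean was 8.81, 8.68 and 8.49 on knockout-labelled arrays A, B and C, and 8.52, 8.96 and 7.94 on wild type A, B and C. Wild type B was the highest and wild type C the lowest, as for Cldn2 but also for Cldn15 and Cldn12. On wild type C 12 of the 17 genes (70.6%) were lowest, against 32.9% of all tested probe sets. The genes with the smallest p were Cdca7, a cell-cycle gene, at 0.61 (SE 0.27), the replication helicase gene Mcm2 at -0.48 (SE 0.25), Lrig1, which encodes a brake on EGF receptor signalling in stem cells, at 0.58 (SE 0.32), and the stem cell factor gene Ascl2 at 0.51 (SE 0.37), each with a limma adjusted p of 0.915. The crypt base gene Lgr5 was among the 4 that were lower, at -0.43 (SE 0.35). When the only control was wild type B, the medians were 0.05 for the surface list and -0.18 for the crypt list, so both turned.

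The T cell and leukocyte list followed the same arrays. All 8 tested T cell and leukocyte genes were lower on the arrays labelled knockout, with a median of -0.61 (0.37 when the only control was wild type B), none past the test, and all 8 were highest on wild type C, as were 28.6% of all tested probe sets. Their summed signal was 985 to 2397 on the arrays labelled knockout and 1094 to 5011 in wild type, and Cd2 was below the filter. Other immune lists differed from this one in their medians. Of 5 tested B and plasma cell genes 1 was higher and 4 lower, with a median of -0.01. Of 8 tested macrophage genes 4 were higher and 4 lower, with a median of -0.04. Both list means were highest on the array labelled knockout B, at 8.07 and 6.97, against 8.05 and 6.92 on wild type C. Like the T cell and leukocyte list, they were lowest on knockout A and wild type B, at 6.95 and 6.56 for B and plasma cells and 6.14 and 6.12 for macrophages. Against wild type B alone, list means differed by 0.37 for T cells and leukocytes, 0.91 for B and plasma cells and 0.51 for macrophages. By the rule of nearest profiles, the genes most like Cldn4 over the 6 arrays were Gimap4 (root mean square difference of centred values 0.26), which encodes a GTPase of lymphocytes, the interferon-inducible gene Mndal (0.27) and Klrd1 (0.28), which encodes the CD94 chain of natural killer cell receptors, among 12436 genes compared. Gimap4 read 7.49, 8.86 and 8.27 on the arrays labelled knockout and 9.24, 7.83 and 10.23 in wild type. Epithelial markers differed less, with list means of 12.80, 12.81 and 12.98 on the arrays labelled knockout and 12.99, 12.78 and 13.03 in wild type. The part of other cells in the Cldn4 differences was not tested.

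**Figure D4:**
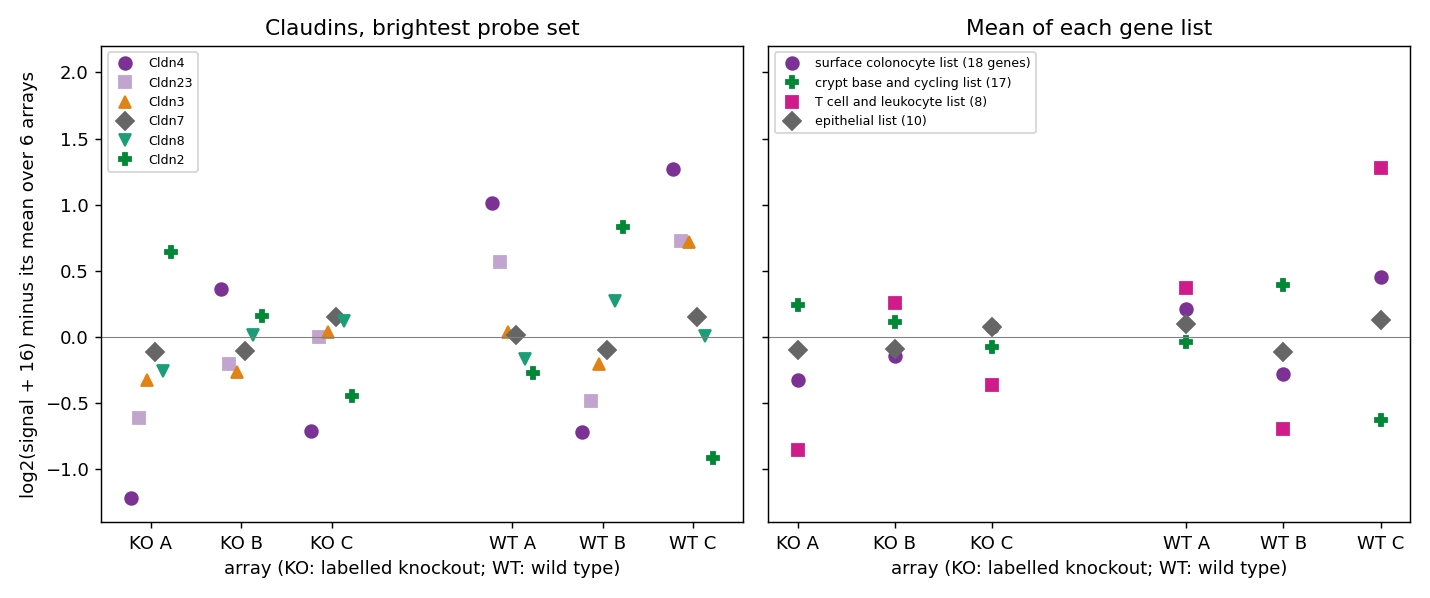
Signals on each array as log2(signal + 16) minus the mean over 6 arrays, for 6 claudins (left) and for the mean of 4 gene lists (right). Cldn4, Cldn23, the surface list and the T cell and leukocyte list are highest on wild type C and lowest on labelled knockout A. Cldn2 and the crypt list are highest on wild type B and lowest on wild type C, as were Cldn15 and Cldn12, which are not drawn.

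The remaining claudin genes gave little signal in these samples. Of 15 other claudins with a probe set here only Cldn10, Cldn14 and Cldn22 passed the filter. Their differences were 0.13 (SE 0.27) for Cldn10, 0.01 (SE 0.20) for Cldn14 and -0.35 (SE 0.30) for Cldn22, all with overlapping groups and none past the test. Cldn5, the claudin of blood vessels, had deposited signals of 22.6, 40.7 and 13.8 on the arrays labelled knockout and 14.4, 8.53 and 12.9 in wild type, and was below the filter on average.

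Other tight junction components were likewise not called. Of 21 tested partners 6 were higher and 15 lower, with a median of -0.16, and 3 of them (Jam2, Crb3 and Magi3) had no overlap between the groups, all of them lower. Of all tested probe sets 8.74% had no overlap, 4% being lower. On the deposited signals Jam2, Crb3 and Magi3 did overlap. Those of Magi3 were 1133, 1007 and 1067.1 on the arrays labelled knockout, and 907, 1066.9 and 593 in wild type. Those of Crb3 were 1069, 803 and 887 on the arrays labelled knockout, and 741, 908 and 733 in wild type. Jam2 was close to the signal filter, with deposited signals of 18.3 to 30.8. The genes with the smallest p were the junctional adhesion gene Jam2 at -0.36 (SE 0.20), Crb3, which encodes a polarity protein, at -0.32 (SE 0.17), Marveld3, a relative of occludin, at -0.32 (SE 0.19) and Cxadr, the coxsackie and adenovirus receptor gene, at -0.29 (SE 0.20). The median was 0.35 on the signals as deposited, where that of all tested probe sets was 0.40.

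Among 12 tested genes whose products bind, stabilise or modify claudins 4 were higher and 8 lower, with a median of -0.12 and none past the test. The membrane proteases matriptase, encoded by St14, and prostasin, encoded by Prss8, had the smallest p. St14 differed by -0.62 (SE 0.27) and Prss8 by -0.49 (SE 0.22). Prss8 read 7.42, 7.66 and 7.65 on the arrays labelled knockout and 8.03, 7.75 and 8.40 in wild type, with no overlap. Its deposited signals did overlap, at 195, 207 and 217 on the arrays labelled knockout and 197, 213 and 212 in wild type. The separation was therefore seen only after quantile normalization. Of 18 tested transcriptional regulators 10 were higher and 8 lower, with a median of 0.04. Elf3, an epithelial ETS factor, had the smallest p, with a difference of -0.62 (SE 0.20), and Ctnnb1, which encodes beta-catenin, differed by -0.22 (SE 0.10). Neither passed the test in limma (adjusted p = 0.915 each).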

How the data were processed

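The deposited table holds 1 linear signal intensity per probe set and array, made by the authors with MAS5 per the submitters' processing notes. Its target and scaling are not stated. Array means differed, so a pseudocount of 16 was added, log2 was taken and arrays were brought to the same quantiles. The 64 control probe sets and those with a mean under the 40th percentile (a signal of about 18.4) were left out, which left 27002. Symbols came from the platform annotation. The groups of 3 arrays were compared in limma 3.58.1 under R 4.3.3, with a trend of variance on signal in eBayes and Benjamini-Hochberg adjustment at 0.05, and exact two-sided permutation tests of the members beside it. The steps were tested on simulated data. In lists, the brightest probe set above the filter stood for a gene, and genes were named by the smallest p, up to 4 a list. The tight junction, crypt, surface, marker and other lists, the members, and the choice of wild type B alone were made with earlier results of these data known. Cldn5, Magi3, Lgr5 and the marker genes were named after their values were seen. Precision is limited by the number of arrays. Alternatives were other scalings, pseudocounts, filters, summaries of probe sets, variance models, array weights (estimated gene by gene, because the default estimator did not converge), a replicate block by letter, leaving out each array, wild type B alone as control and the Gapdh ratio as a covariate.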

Additional observations from a re-analysis of the deposited data

How the results depend on the processing

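No claudin probe set passed an adjusted p of 0.05 in limma under any of 20 other settings, and the lowest adjusted p was 0.098, while 205 of 250 recomputed differences kept their direction and 45 turned. Over all probe sets limma called 0, and 1 on the signals as deposited, 1 centred on array medians, 74 with array weights, 1 with the replicate letter as a block, 2 when the only control was wild type B, and 0 to 2 leaving out 1 array. Probe sets with an unadjusted p under 0.05 numbered 952, and 4368 without wild type B. The median of all tested probe sets was 0.40 as deposited and 0.16 centred on medians, against 0.02. Arrays with the same letter had correlations of deviations across probe sets of -0.07, -0.16 and 0.43 for A, B and C. Knockout A and wild type B gave 0.54. Deviations from a group mean depend on each other, so these values cannot decide whether the letters mark pairs. The letters were not taken as pairs. With the replicate block 0 claudin probe sets and 0 genes of the surrounding lists were called.

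Directions turned as follows, and the cause was not tested. As deposited the differences were 0.49 for Cldn15, 0.073, 0.065, 0.23 and 0.44 for the Cldn3 probe sets, 0.25 for Cldn7, 0.39 for Cldn8, 0.20 for Crb3, 0.20 for Cxadr, 0.20 for Marveld3, 0.013 for Ctnnb1 and 0.014 for Mcm2. Centred on medians they were 0.25 for Cldn15, 0.20 for Cldn3 (1426332_a_at), 0.013 for Cldn7 and 0.16 for Cldn8, and with array weights 0.083 for Cldn8. When the only control was wild type B they were 0.20 for Cldn4, 0.21 for Cldn23, 0.020, 0.12 and 0.23 for Cldn3, 0.076 for Cldn7, -0.71 and -0.41 for Cldn2, -0.090 and -0.15 for Cldn12, -0.20 for Cldn14, -0.17 for Ascl2, -0.18 for Lrig1, -0.0029 for Cdca7, 0.010 for Emp1, -0.034 for Hoxb13, 0.38 for Gimap4, 0.20 for Klrd1 and 0.48 for Mndal. With the Gapdh ratio they were 0.13 for Cldn4, 0.036 for Cldn23, 0.14, 0.041, 0.29 and 0.29 for Cldn3, 0.057 for Cldn7, -0.62 and -0.56 for Cldn2, -0.096 and -0.31 for Cldn12, -0.23 for Cldn14, -0.12 for Cldn10, -0.25 for Ascl2, -0.23 for Lrig1, 0.073 for Mcm2, 0.53 for Gimap4, 0.37 for Klrd1 and 0.71 for Mndal. Leaving out 1 array gave ranges that include 0 for Cldn2 (-0.16 to 0.71 and -0.039 to 0.89), Cldn3 (-0.42 to 0.078 on 1451701_x_at and -0.31 to 0.15 on 1426332_a_at), Cldn7 (-0.13 to 0.019), Cldn8 (-0.18 to 0.035), Cldn15 (-0.17 to 0.11), Cldn10 (-0.087 to 0.29) and Cldn14 (-0.085 to 0.11). Cldn4 stayed between -1.66 without wild type B and -0.67 without wild type C, and Cldn23 between -0.92 and -0.31 without the same arrays. On the signals as deposited these differences kept their sign but were smaller in size, at -0.53 for Cldn4 and -0.05 for Cldn23.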

Other observations

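Claudin-8 and the epithelial sodium channel work side by side in the distal colon, where sodium is absorbed against a steep gradient. Of 12 tested genes of this transport 6 were higher and 6 lower on the arrays labelled knockout, with a median difference of -0.03 and none past the test in limma. The aldosterone-induced kinase gene Sgk1 read 11.72, 12.07 and 10.61 on knockout-labelled arrays A, B and C, against 11.25, 10.68 and 10.48 on wild type A, B and C (difference 0.66, SE 0.36, limma adjusted p = 0.915). The arrays labelled knockout A and B were the highest and C lay among the wild-type values.

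Of 6 tested genes that mark position along the gut all 6 were higher on the arrays labelled knockout, none past the test, with a median of 0.22. Of all tested probe sets 46.4% were lower. The list was not split by position, so this count gives no direction along the gut. Another 4 of its genes were below the filter, which stood at a signal of about 18.4. Gata4 and Hoxa13 were close to it, with deposited signals of 23.0 to 45.7 and 17.2 to 60.6. Hoxb13, a homeobox gene of the distal colon, read 9.81, 10.73 and 10.94 on the arrays labelled knockout and 9.86, 10.53 and 9.93 in wild type, with overlapping groups (difference 0.39, SE 0.31, limma adjusted p = 0.915). Squamous epithelium markers were dim, with list means of 5.53 to 5.61 on the arrays labelled knockout and 5.90 to 6.02 in wild type.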
